A study of Mus musculus with 9 samples.

Results

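Genes for 35 enzymes that break down amino acids were examined in the liver of mice given Dox (doxycycline) or Tc (tetracycline). They were taken from a table of 32285 genes by symbol, by a rule that names each enzyme and groups them into 8 routes. The rule uses no measured value, but the members were chosen with earlier results of these data known. All 35 had a mean of at least 10 normalized counts and were among the 12100 genes tested. The routes were the aromatic one for tyrosine (4 genes), and those for tryptophan (6), glycine (6), sulfur amino acids (4), branched-chain amino acids (8), proline (3), lysine (1) and histidine (3).

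RNA sequencing was done on whole liver of Tet-OFF mice in 3 groups (Control, Dox and Tc) with 3 libraries each. The mice carried PB CAG-CreERT2, a tamoxifen-activated Cre recombinase driven by a promoter active in all tissues, together with Rosa26-LSL-tTA and Rosa26-tetO-Venus-ires-mCherry alleles, and mice of all 3 groups, controls included, had received tamoxifen. Mice of the Dox and Tc groups were 4 weeks old when they began to drink water with 2 mg/mL of the drug and sucrose. They did so for 7 days. The controls are also given as 4 weeks old, and the paper describes the treated mice as male. Whether the controls also drank sucrose is not given in the sources used here. In Tet-OFF mice the tTA protein drives the Venus reporter until a tetracycline is given, so the controls had the reporter switched on and the treated mice had it switched off. An effect of the drug and an effect of that switch cannot be told apart. The study compared Dox with Tc to ask how far each drug alters liver transcripts other than the transgene.

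The liver breaks down most amino acids. Tyrosine, tryptophan, histidine and lysine are each opened by a committed enzyme and are then cut down to fumarate, acetoacetate, alanine or glutamate, while glycine is split by a mitochondrial complex that feeds the folate pool. Homocysteine, made from methionine, is turned into cysteine by transsulfuration, and cysteine is oxidised to taurine or sulfate. Leucine, isoleucine and valine lose their amino group mostly outside the liver, and the liver oxidises the resulting keto acids. Tetracyclines bind the ribosome of bacteria and can also slow the related ribosome of mitochondria.

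A normalized count is the number of reads on a gene after division by the size factor of its library. Recovered reads on genes ranged from 7426136 to 12183041 per library. In every group, library 3 was fitted by libraries 1 and 2 added with weights (fitted weights 58.62% and 40.91% in controls, 61.28% and 34.40% with Dox, 59.75% and 36.91% with Tc). How closely it fitted was not measured. Among genes with a group mean of at least 10 where libraries 1 and 2 differed over 2-fold, library 3 mostly lay between them. It did so at 528 of 597 genes in controls, 4097 of 4194 with Dox and 916 of 958 with Tc. The 3 libraries of a group may therefore not be 3 independent livers, and p-values over all 9 libraries are then too small. Without libraries 3, limma passed 0 of the 35 members by adjusted p in any of the 3 comparisons (with Dox 0.00% of all genes passed), and DESeq2 passed 2 with Dox and 0 in the other comparisons. The first and second Dox libraries differed over 2-fold at 35.2% of all genes tested, against 4.84% in controls and 8.45% with Tc. The 8 hepatocyte markers, mostly Alb, summed to 1219811 to 1681980 normalized counts in controls, 466383 to 890518 with Dox and 877198 to 1345522 with Tc. They did not move together: with Dox, Alb and Fgb lay below all controls in every library, Cps1 lay above all controls (62020, 127213 and 80945 against 58690, 47781 and 54557), and the other 5 lay to neither side. The 7 Kupffer cell markers summed to 6562 to 12763, 1782 to 6311 and 3128 to 6273 in the same order, and the 6 endothelial markers to 3696 to 3906, 1888 to 2402 and 2959.8 to 3346. The 5 pancreatic acinar markers summed to at most 10.1, with Prss2 and Cpa1 at 0 throughout. The part of these marker differences in the results was not tested, and in whole liver fewer cells of a type and less RNA per cell cannot be told apart.

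With Dox, Tdo2 and Acmsd of the tryptophan route were raised and Uroc1 of the histidine route was lowered, and these were the 3 members called, that is with a fold change over 2 and an adjusted p under 0.05. Called members were 8.57% of the 35, against 5.00% of all genes tested. By the adjusted p alone 6 members passed (17.1%, against 8.41% of all genes tested). Of these, 2 were raised (3.16% of all genes were) and 4 were lowered, namely Uroc1, Cbs, Shmt1 and Prodh2 (5.26% of all genes were). The members as a set did not lie to one side, with 19 log2 fold changes above 0, 16 below, and a median of 0.05 beside 0.00 over all genes tested. With Tc, 0 of 35 members were called by limma, against 0.165% of all genes. In the comparison of Dox with Tc, 0 were called, against 0.215%.

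The 250 bases before the RefSeq transcript start (GRCm38.p6) are shown for 3 of the 6 members that passed by adjusted p with Dox. These examples are Tdo2, Uroc1 and, as one with several motif matches, Prodh2. The bases are given 5′ to 3′ on the strand of the gene, and capitals mark matches to the motifs searched.
Tdo2, chr3:81975729-81975978, minus strand: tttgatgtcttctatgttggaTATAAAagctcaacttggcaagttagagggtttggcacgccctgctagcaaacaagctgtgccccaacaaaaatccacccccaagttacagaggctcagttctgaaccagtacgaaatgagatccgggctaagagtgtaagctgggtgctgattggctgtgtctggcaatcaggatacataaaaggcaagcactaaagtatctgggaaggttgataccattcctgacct
Uroc1, chr6:90333039-90333288, plus strand: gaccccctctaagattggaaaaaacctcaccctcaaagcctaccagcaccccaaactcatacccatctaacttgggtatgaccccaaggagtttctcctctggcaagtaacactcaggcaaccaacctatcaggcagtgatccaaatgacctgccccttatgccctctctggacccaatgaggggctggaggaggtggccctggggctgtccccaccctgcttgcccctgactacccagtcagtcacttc
Prodh2, chr7:30493408-30493657, plus strand: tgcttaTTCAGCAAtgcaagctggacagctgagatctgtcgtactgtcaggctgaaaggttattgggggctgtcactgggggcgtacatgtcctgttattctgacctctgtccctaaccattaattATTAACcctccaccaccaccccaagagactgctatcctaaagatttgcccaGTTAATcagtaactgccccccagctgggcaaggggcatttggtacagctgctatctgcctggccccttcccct
The window of Tdo2 lies inside the gene as GRCm38 annotates it, so it may precede an inner start. The same holds for windows of other members, among them Haao, Kmo, Shmt1 and the Bckdhb window that held the HNF1 letters. The motifs were searched on both strands, in 300 bases from 250 before to 50 after each start. They were the HNF1 core GTTAAT, the HNF4 site CAAAGTCCA, the C/EBP site TTGCNNAA, the glucocorticoid receptor core TGTTCT, the C/EBP-ATF site TGATGNAA and the TATA box TATAAA, and matches of different motifs were allowed to overlap. In all, 36 windows were found for 32 of the 35 members. A member was counted if any of its windows held the letters, while the share of all windows is per single window, so the units differ. The TATA box letters were in 4 members (12.5%: Bckdk, Ftcd, Hgd and Tdo2) and in 13.6% of all 32851 windows. The HNF1 core was in 4 members (12.5%: Bckdhb, Ftcd, Haao and Prodh2) and in 7.10% of all windows, and the C/EBP site was in 3 members (9.38%: Aass, Hgd and Prodh2) and in 10.8%. The glucocorticoid receptor core was in 5 members (15.6%: Aldh6a1, Bckdhb, Bckdk, Haao and Kmo) and in 19.0% of all windows, while the HNF4 and C/EBP-ATF sites were in 0 members, and in 0.475% and 3.97% of all windows. In the Prodh2 window the HNF1 letters began at -124 and -73 and the C/EBP letters at -244 from the start, and in the Tdo2 window the TATA box letters began at -229. None of these letters was in the windows of Uroc1, Cbs or Shmt1.

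Tryptophan is broken down along the kynurenine route, where Tdo2 and Acmsd passed the test and the 4 other members did not. Tdo2 (ENSMUSG00000028011, chromosome 3, 81957090 to 81976202 in GRCm38) encodes tryptophan 2,3-dioxygenase, the committed enzyme. It had 5821, 6244 and 5890.3 normalized counts in the control libraries, 16847, 23146 and 18362 with Dox and 13199.5, 9079.8 and 10754 with Tc. All treated libraries were above all controls, and every Dox library was above every Tc library. The log2 fold change with Dox was 1.69 (standard error 0.20, limma adjusted p = 0.00744). With Tc it was 0.86 (standard error 0.20, limma adjusted p = 0.171), which did not pass, but 0.0194 with only the Control and Tc libraries in the fit. Without libraries 3 the Dox change was 1.71, with an adjusted p of 0.558 from limma and 0.00154 from DESeq2, and without Control library 3 alone the limma value was 0.0515.

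Acmsd (ENSMUSG00000026348, chromosome 1, 127729413 to 127767978) encodes the decarboxylase that draws tryptophan carbon away from NAD synthesis, and it was the least abundant member in controls, at 15.0 normalized counts per kilobase of transcript. It had 52.9, 28.3 and 40.7 normalized counts in controls, 186, 809.8 and 414 with Dox and 179, 89.0 and 109.5 with Tc. Every treated library was above every control, and the second Dox library held 4.34 times the count of the first, which was close to the highest Tc library. The log2 fold change with Dox was 3.30 (standard error 0.51, limma adjusted p = 0.0118), the largest of the 35. With Tc it was 1.59 (standard error 0.51, adjusted p = 0.304), but 0.026 with only the Control and Tc libraries in the fit. Without libraries 3 the Dox change was 3.29, with an adjusted p of 0.558 from limma and 0.00154 from DESeq2. The limma value was also above the threshold without Control library 2 (0.0557), Control library 3 (0.0669) or Dox library 3 (0.0596).

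The other members of the route did not pass the test with either drug. Afmid (formamidase), Kmo (kynurenine hydroxylase), Kynu (kynureninase) and Haao (hydroxyanthranilate dioxygenase) had log2 fold changes with Dox of -0.48, -0.14, -0.19 and -0.48, at limma adjusted p from 0.114 to 0.79. With Tc their log2 fold changes were -0.23, -0.05, -0.02 and 0.29. Haao had 2674, 2440.0 and 2468 normalized counts in controls but 3735, 652 and 2416 with Dox, so that the first Dox library was above and the second below all controls. Kynu was split in the same way, at 1888, 665 and 1421 with Dox against 1337, 1408 and 1412 in controls. Afmid lay below all controls in every Dox library, and it shares exon sequence on the same strand with the gene model Gm20708, so its counts are uncertain.

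**Figure D1:**
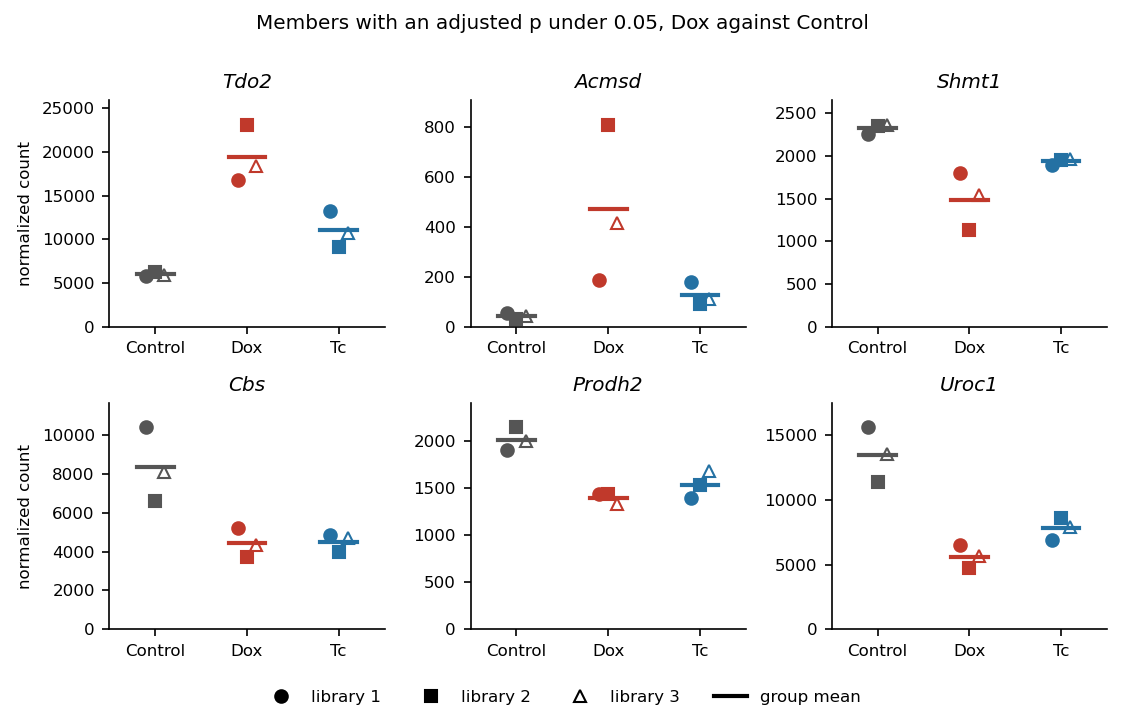
Normalized counts in each library (circle, square and triangle for libraries 1, 2 and 3) of the 6 members with an adjusted p under 0.05 for Dox against Control, with a bar at the group mean and a linear axis from 0. Tdo2 and Acmsd lie higher in all Dox and Tc libraries than in all controls, and Shmt1, Cbs, Prodh2 and Uroc1 lie lower.

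Histidine is opened by histidase and then passed to urocanase, which is encoded by Uroc1 (ENSMUSG00000034456, chromosome 6, 90333284 to 90364551). Uroc1 was the third most abundant member in controls, at 4006 normalized counts per kilobase, and stood at 1667 with Dox and 2317 with Tc. It had 15609, 11363 and 13529 normalized counts in controls, 6479, 4701 and 5676 with Dox and 6908, 8596 and 7923 with Tc. All treated libraries were below all controls, and all Dox libraries were below all Tc libraries. On the log2 scale Uroc1 fell with Dox, with a fold change of -1.26 (standard error 0.20, limma adjusted p = 0.0122), and its Tc value was -0.78 (standard error 0.20, limma adjusted p = 0.187, and 0.0298 with only the Control and Tc libraries). Without libraries 3 the Dox change was -1.27, with an adjusted p of 0.558 from limma and 0.0738 from DESeq2, and the limma value was 0.0685 without Control library 3 and 0.0612 without Dox library 3. The enzymes that follow, Amdhd1 (imidazolonepropionase) and Ftcd (the folate-dependent formiminotransferase), stood at 0.09 and 0.19 with Dox on the log2 fold scale, and at -0.20 and -0.12 with Tc, none past the threshold.

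Tyrosine is degraded by Hpd (4-hydroxyphenylpyruvate dioxygenase), Hgd (homogentisate dioxygenase), Gstz1 (maleylacetoacetate isomerase) and Fah (fumarylacetoacetase), and none of the 4 passed the test with either drug. Hpd was the most abundant of all members, at 8675 normalized counts per kilobase in controls, 10350.0 with Dox and 9013 with Tc. Hgd had 3914, 2568 and 3398 normalized counts in controls, 5307, 3849 and 4436 with Dox and 4326, 3560.2 and 4008 with Tc, where the groups overlapped. Its log2 fold change with Dox was 0.47 (standard error 0.20, limma adjusted p = 0.158). Fah had 4492, 3759.9 and 4939 in controls, 5061, 4039 and 4399 with Dox and 6208, 4998 and 5005 with Tc, with every Tc library just above the highest control. Its log2 fold change with Tc was 0.30 (standard error 0.17, adjusted p = 0.557). For Hpd and Gstz1 the Dox values on the log2 fold scale were 0.26 and -0.25, and the Tc values 0.05 and 0.15. Gstz1 overlaps exons of Pomt2 on the other strand.

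Glycine and its methylated forms are handled by 6 members. The glycine cleavage complex of mitochondria is represented by Gldc (the decarboxylating P protein), Amt (the aminomethyl-transferring T protein) and Gcsh (the carrier H protein). Shmt1 makes serine and glycine from each other in the cytosol, and Dmgdh and Sardh remove methyl groups from dimethylglycine and sarcosine. With Dox, 5 of the 6 log2 fold changes were negative (median -0.69). The test called 0 of the 6 (5.00% of all genes were called) and passed 1 by adjusted p alone (8.41% of all genes passed). With Tc, 5 of the 6 were also negative (median -0.25), with 0 past the threshold by adjusted p alone (0.182% of all genes passed). The controls are shared between these comparisons.

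Shmt1 (ENSMUSG00000020534, chromosome 11, 60788104 to 60811718) had 2255, 2349.7 and 2366 normalized counts in controls, 1801, 1126 and 1537 with Dox and 1888, 1949 and 1968 with Tc. All treated libraries were below all controls. The log2 fold change with Dox was -0.67 (standard error 0.17, limma adjusted p = 0.0471), and with Tc -0.26 (adjusted p = 0.608). The Dox value was just under the threshold and was 0.0523 with edgeR, 0.121 with only the Control and Dox libraries in the limma fit, and 0.573 without libraries 3. With 1 library left out in turn it ran from 0.0133 to 0.152 and stayed under the threshold only without Dox library 1 or Dox library 2. Shmt1 also overlaps exons of Smcr8 on the other strand.

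Subunits of the glycine cleavage complex lay on different sides of the controls with Dox. Amt had 732, 648 and 700.5 normalized counts in controls, 489, 113 and 368 with Dox and 583, 645 and 548 with Tc. Gcsh had 1027, 961 and 889 in controls, 786, 212 and 583 with Dox and 786, 741 and 941 with Tc. Both were below all controls in every Dox library, far below in the second and nearer to the controls in the first. Their log2 fold changes with Dox were -1.34 and -1.06 (standard errors 0.45 and 0.41, limma adjusted p = 0.0984 and 0.133), and with Tc both were -0.23. Gldc, in contrast, had 1409, 1429.7 and 1425 in controls, 1698, 2672 and 1979 with Dox and 1298, 1064 and 1069.6 with Tc, above all controls in the Dox libraries and below all controls in the Tc libraries. Its log2 fold values were 0.55 with Dox and -0.32 with Tc, neither past the threshold (limma adjusted p = 0.0859 and 0.538). DESeq2 gave the Dox value an adjusted p of 0.0319, and 0.649 without libraries 3.

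Dmgdh had 6289, 6165 and 6008 normalized counts in controls, 5159, 2555 and 4043 with Dox and 4421, 5272 and 4776 with Tc. Every treated library was below every control, and the second Dox library was the lowest. On the log2 fold scale Dmgdh stood at -0.71 with Dox and -0.36 with Tc (standard error 0.24 for both, limma adjusted p = 0.0984 and 0.631). Sardh had log2 fold changes of -0.42 and 0.01 and overlapped the controls in both groups.

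Sulfur amino acids pass through cystathionine β-synthase (Cbs) and cystathionine γ-lyase (Cth), and cysteine then goes to taurine by way of Cdo1 (cysteine dioxygenase) and Csad (cysteine sulfinate decarboxylase). Cbs (ENSMUSG00000024039, chromosome 17, 31608894 to 31637238) had 10416, 6595 and 8115 normalized counts in controls, 5231, 3728 and 4328 with Dox and 4836, 3958 and 4722 with Tc. All treated libraries were below all controls, and the Dox and Tc libraries lay among each other. For Cbs the log2 fold change was -0.91 with Dox (standard error 0.21, limma adjusted p = 0.0365) and -0.87 with Tc (standard error 0.21, adjusted p = 0.18). With only the 2 groups compared in the fit these limma values were 0.0936 for Dox and 0.0302 for Tc. Without libraries 3 the Dox change was -0.91, with an adjusted p of 0.573 from limma and 0.42 from DESeq2. With 1 library left out in turn the limma value ran from 0.0175 to 0.126, and it was above the threshold without any 1 control library, Dox library 3, Tc library 1 or Tc library 3.

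Cth, the partner of Cbs, had 3631, 1959 and 3026 normalized counts in controls, 2819, 13807 and 6394 with Dox and 2026, 2439 and 2088 with Tc. Its first Dox library lay within the range of the controls, and its second Dox library held 4.90 times that count. The log2 fold change with Dox was 1.18 (standard error 0.50), with an adjusted p of 0.161 from limma and 0.0288 from DESeq2 (0.446 from DESeq2 without libraries 3), and with Tc it was -0.35 (limma adjusted p = 0.848). Cdo1 was split in the same direction, with 9844, 23872 and 14529 in the Dox libraries against 13421, 11941 and 12153 in controls. Csad varied most among the controls themselves, at 925, 3179 and 1889, and neither its Dox change (0.41 on the log2 scale) nor its Tc change (0.13) passed. Csad overlaps exons of Zfp740 on the other strand.

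The 8 members of the branched-chain route had small log2 fold changes. Bckdha and Bckdhb (subunits of the keto acid dehydrogenase), Bckdk (the kinase that inhibits it), Ivd (isovaleryl-CoA dehydrogenase), Mccc1 and Mccc2 (subunits of methylcrotonyl-CoA carboxylase), Aldh6a1 and Hibadh (late enzymes of valine breakdown) had log2 fold changes from -0.25 to 0.31 with Dox and from -0.22 to 0.40 with Tc. With limma 0 of 8 passed with either drug, and 0 of 8 had an unadjusted p under 0.05 (29.1% of all genes with Dox and 11.7% with Tc did). Without Dox library 2, 3 of the 8 passed by adjusted p with Dox (Ivd, Mccc1 and Hibadh, at 0.0344, 0.0236 and 0.0418 in limma), against 18.5% of all genes in the same fit. Ivd had 1381, 1163 and 1329 normalized counts in controls, 2070.2, 1178 and 1672 with Dox and 1828, 1502 and 1786 with Tc. Every Tc library of Ivd was above every control, while the second Dox library lay among the controls. For Ivd the log2 fold values were 0.31 for Dox and 0.40 for Tc (standard error 0.21 for both, limma adjusted p = 0.342 and 0.511). The 95% intervals with Dox were narrowest for Bckdha (-0.09 to 0.45) and widest for Hibadh (-0.80 to 1.10), and that of Hibadh takes in a 2-fold rise. Hibadh shares exon sequence on the same strand with the gene model Gm24355, so its counts are uncertain. Bckdk was the second least abundant member, at 21.6 normalized counts per kilobase in controls.

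Proline is oxidised by Prodh, hydroxyproline by Prodh2, and the aldehydes that follow by Aldh4a1. Prodh2 (ENSMUSG00000036892, chromosome 7, 30493622 to 30513402) had 1904, 2148 and 1997 normalized counts in controls, 1439, 1436 and 1328 with Dox and 1398, 1535 and 1678 with Tc. All treated libraries were below all controls, and the Dox libraries were close together. The log2 fold change was -0.52 with Dox (standard error 0.12, limma adjusted p = 0.0354) and -0.39 with Tc (adjusted p = 0.281). The Dox value was 0.082 with only the Control and Dox libraries in the fit, 0.144 with each library scaled to the same total, and 0.579 without libraries 3. With 1 library left out in turn it ran from 0.0167 to 0.135 and stayed under the threshold only without Dox library 1, Dox library 2 or Tc library 1.

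Prodh had 2718, 2322 and 2402 normalized counts in controls, 1171, 3189 and 1730.5 with Dox and 1856, 1184 and 1789.7 with Tc. The Tc libraries were all below the controls, whereas the first Dox library was below and the second above them. For Prodh the log2 fold values were -0.41 for Dox and -0.65 for Tc (limma adjusted p = 0.447 and 0.518). Aldh4a1 had log2 fold changes of 0.12 and 0.38, and its Tc libraries were all above the controls. Aldh4a1 shares exon sequence on the same strand with the gene model Gm21969, so its counts are uncertain. Aass, the bifunctional enzyme that opens the lysine route, had 4692, 2642 and 3848 in controls, 3612, 12119.6 and 6383 with Dox and 3611, 3536 and 3339 with Tc. Its first Dox library lay within the range of the controls and the other Dox libraries above it, and its log2 fold change with Dox was 0.85 (standard error 0.40, limma adjusted p = 0.197).

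**Figure D2:**
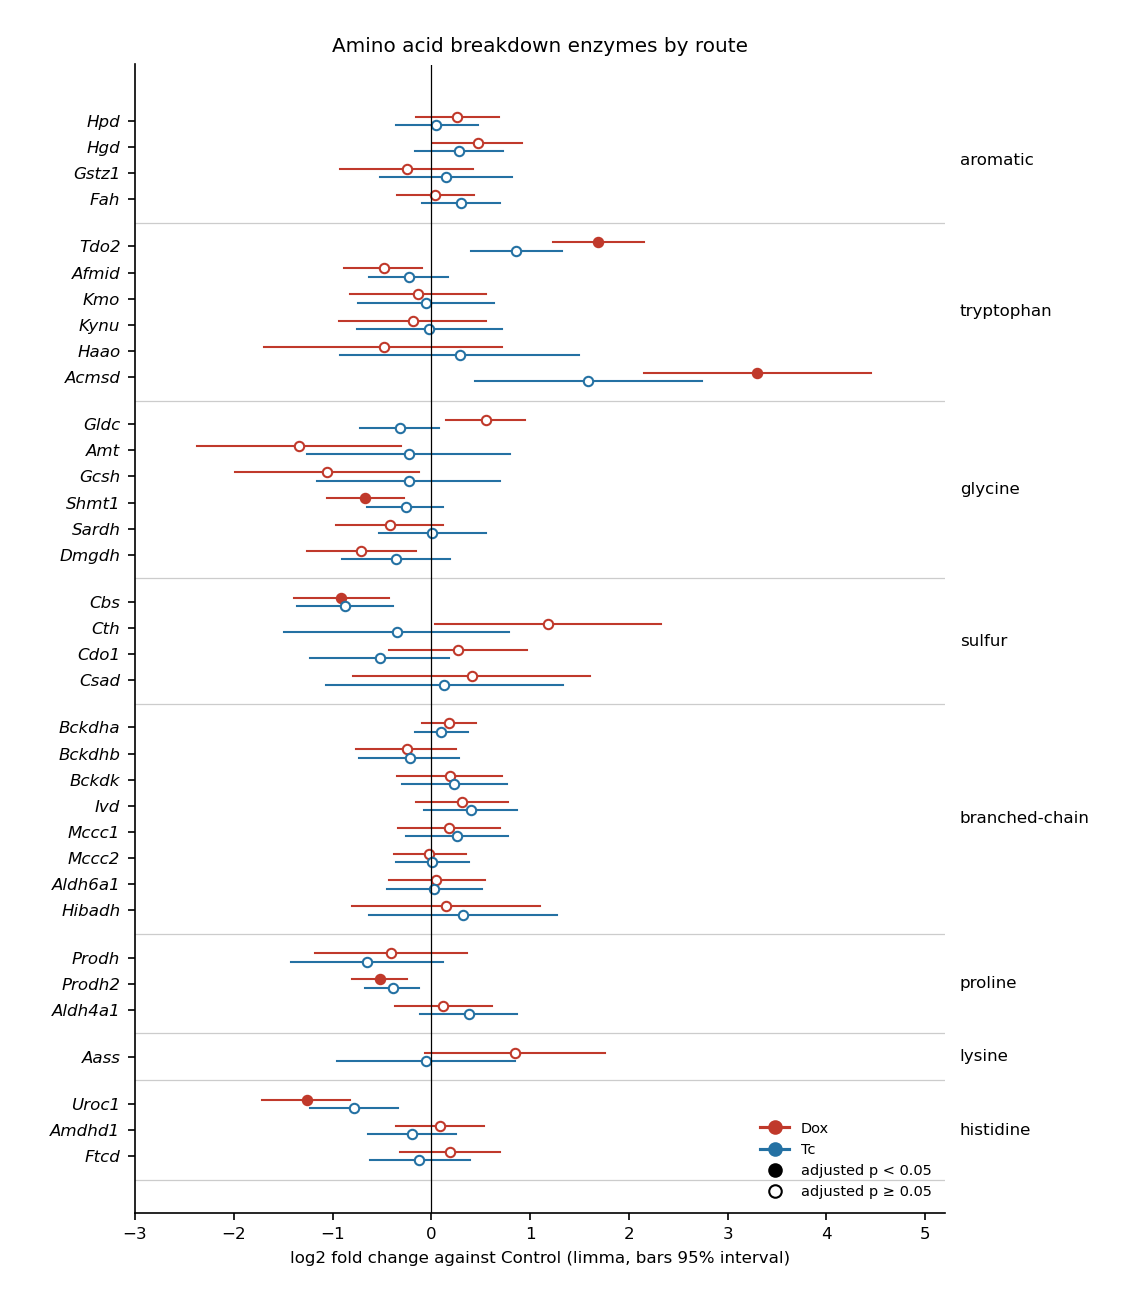
Log2 fold change against Control of each member by route, for Dox (red) and Tc (blue), from limma with 95% intervals, where filled points have an adjusted p under 0.05. The 6 filled points are all for Dox, with Acmsd at 3.30 and Uroc1 at -1.26, and the branched-chain members lie between -0.25 and 0.40.

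Group separation was counted for all members. With Dox, 5 members had every library above every control (14.3%, against 16.1% of all genes tested), namely Hpd, Tdo2, Acmsd, Gldc and Bckdha. Below every control lay 8 members (22.9%, against 17.1%), which were Afmid, Amt, Gcsh, Shmt1, Dmgdh, Cbs, Prodh2 and Uroc1. With Tc, 6 members lay above (17.1%, against 15.8%), which were Fah, Tdo2, Acmsd, Ivd, Mccc1 and Aldh4a1. Below lay 9 (25.7%, against 14.9%), which were Gldc, Amt, Shmt1, Dmgdh, Cbs, Cdo1, Prodh, Prodh2 and Uroc1. These comparisons share their controls. By adjusted p alone 0 of 35 members passed with Tc in limma, against 0.182% of all genes, while 5 had an unadjusted p under 0.05 (11.7% of all genes did). For Tc, edgeR passed 0 (0.198% of all genes) and DESeq2 passed 3 (Tdo2, Cbs and Uroc1, against 2.42%), of which 0 exceeded the fold limit and 0 passed without libraries 3. With only the Control and Tc libraries in the limma fit 4 passed (Tdo2, Acmsd, Cbs and Uroc1), against 6.01%. For Dox, DESeq2 called 4 members with all 9 libraries (Cth beside the 3 above), against 8.71% of the genes it tested, and 2 members without libraries 3 (Tdo2 and Acmsd), against 0.851%.

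Members were also split by the compartment in which the enzyme works. With Dox, 5 of the 17 cytosolic members (29.4%) had an adjusted p under 0.05. Of the 18 mitochondrial members 1 did (5.56%, Prodh2), and of all genes tested 8.41% did. The median log2 fold changes were 0.09 and 0.02. The difference between the compartments was not tested.

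Between the first and the second Dox library, 13 of 35 members (37.1%) differed over 2-fold, close to the 35.2% of all genes tested. In controls 1 member did (Csad), and with Tc 0 did. The second Dox library was higher for Acmsd, Cth, Cdo1, Prodh and Aass and lower for Gstz1, Kynu, Haao, Amt, Gcsh, Dmgdh, Csad and Hibadh. Haao, at 5.73 times more in the first than in the second library, and Cth, at 4.90 times more in the second than in the first, were the farthest apart in each direction. The third Dox library lay between the others for 33 of 35 members and for 9446 of the 12100 genes tested. In controls library 3 lay between the others for 26 of 35 members (5562 of the 12100 genes), and with Tc for 22 (6132 genes). Tdo2, Cbs, Uroc1, Shmt1 and Prodh2 were on the same side of the controls in the first and second Dox libraries, each with under 2-fold between them. Without the first Dox library 8 members were called with Dox in limma (Tdo2, Acmsd, Amt, Gcsh, Cbs, Cth, Aass and Uroc1), against 12.5% of all genes in the same fit. Without the second there were 3 (9.22% of all genes), and without the third 1 (Tdo2, against 0.719%). Without Control library 2 there were 2 (Tdo2 and Uroc1, against 1.02%), and without Control library 3 there were 0 (0.265%).

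**Figure D3:**
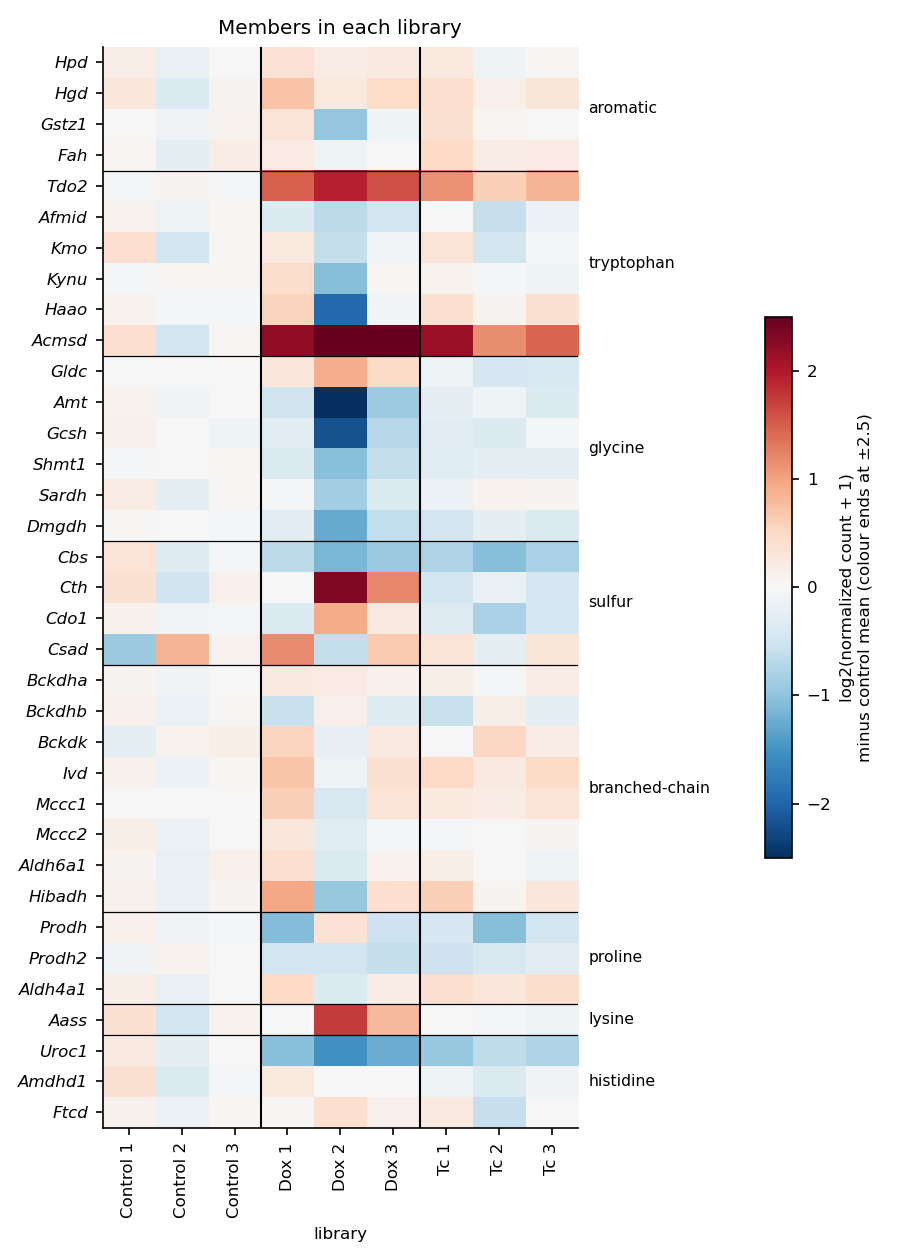
Log2(normalized count + 1) of the 35 members in the 9 libraries, minus the mean of the control libraries, with the colour scale ending at -2.5 and 2.5. Tdo2 and Acmsd are above the control mean in all 6 treated libraries, and the second Dox library holds the lowest values of Amt, Gcsh and Haao and the highest of Cth and Aass.

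**Figure D4:**
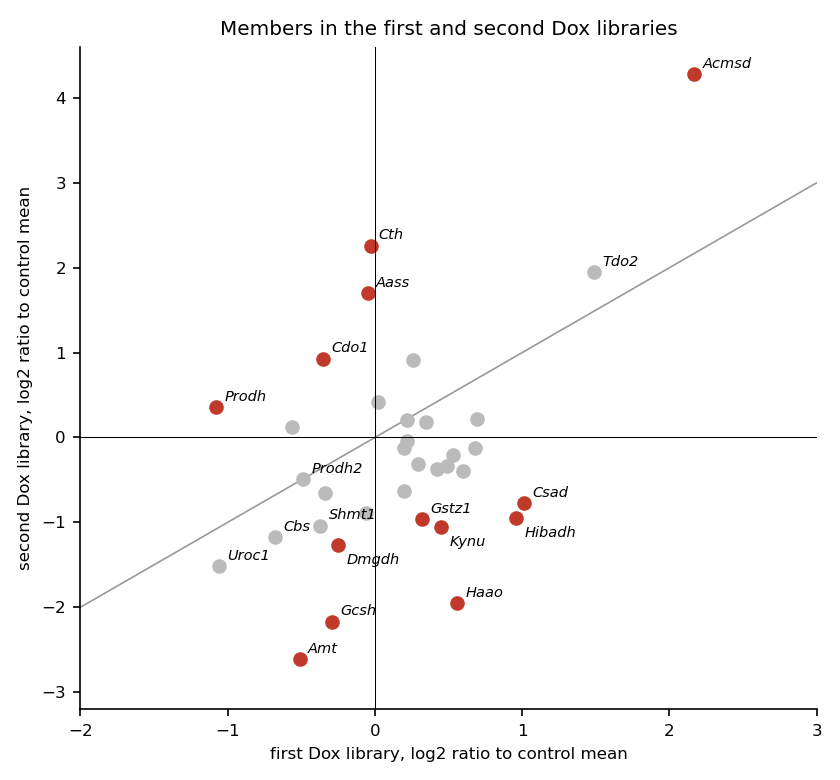
Log2 ratio to the control mean of each member in the first (horizontal) and the second (vertical) Dox library, with a line of equality; red points differ over 2-fold between these libraries and grey points do not. The 13 red points lie far from the line, with Cth at -0.03 and 2.26 and Amt at -0.51 and -2.61, while Tdo2 is at 1.49 and 1.95.

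Dox and Tc share a ring system and differ in the placement of a hydroxyl group. They were given at the same concentration and for the same time, as the hyclate and the hydrochloride, and were also compared directly, over 35 pairs of values with p-values adjusted over all genes. The levels of either drug in the liver were not measured here. With limma 0 of 35 members passed the threshold, by adjusted p alone (0.231% of all genes did) or with the fold limit, and 8 had an unadjusted p under 0.05 (21.7% of all genes did). DESeq2 called 2 (Acmsd and Cth, against 4.67%) and edgeR 0 (0.00%), and without libraries 3 DESeq2 called 0. Without the first Dox library limma called 7 (Acmsd, Gldc, Amt, Gcsh, Cth, Cdo1 and Aass), against 11.3% of all genes. The Dox libraries lay above all Tc libraries for 6 members (17.1%, against 12.2% of all genes), which were Tdo2, Acmsd, Gldc, Cth, Aass and Amdhd1, and below all of them for 3 (8.57%, against 12.4%), which were Amt, Shmt1 and Uroc1. The median difference over the members was -0.05 on the log2 scale, beside -0.02 over all genes.

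The smallest adjusted p of Dox against Tc was that of Gldc, with a log2 difference of 0.87 (95% interval 0.47 to 1.27, limma adjusted p = 0.0857, and 0.755 without libraries 3). Tdo2 differed by 0.82 (0.36 to 1.28, adjusted p = 0.11) and Acmsd by 1.71 (0.56 to 2.87, adjusted p = 0.14). These intervals, before adjustment for the number of genes, lie above 0, but the limma adjusted p-values did not pass. Over all 9 libraries DESeq2 gave Gldc, Tdo2 and Acmsd adjusted p-values of 8.21e-04, 0.00168 and 0.00713, which passed. Without libraries 3 these DESeq2 values were 0.653, 0.693 and 0.599. Cth differed by 1.53 (0.39 to 2.67, adjusted p = 0.163 from limma and 0.00746 from DESeq2), with its Dox values spread as described above. Without libraries 3 the DESeq2 value of Cth was 0.526. For Uroc1 the difference was -0.48 (-0.93 to -0.04), and for Cbs it was -0.03 (-0.51 to 0.45), an interval that leaves room for a difference in either direction.

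Other enzymes of the same routes were counted from a further list of 49 genes, of which 48 were found in the table and tested. With Dox 1 was raised and 1 lowered by both thresholds, and 3 passed by adjusted p alone (6.25%, against 8.41% of all genes). With Tc 0 of the 48 passed in limma, while 7 had an unadjusted p under 0.05 (11.7% of all genes did). Of 11 regulators of these routes, 0 were called with either drug (5.00% of all genes were with Dox and 0.165% with Tc). By adjusted p alone 2 passed with Dox (18.2%, against 8.41% of all genes). They were Foxa2 (log2 fold change -0.87, limma adjusted p = 0.0175) and Creb3l3 (0.53, 0.0456). Without libraries 3 these limma values were 0.563 and 0.585.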

How the data were processed

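RNA-seq of whole liver from 9 libraries (Control, Dox and Tc, 3 each) was analysed. The members and gene lists were chosen with earlier results of these data known. The authors trimmed reads with cutadapt, aligned them to mm10 with STAR 2.7.11ac, counted them per gene with HTSeq 2.0.5 and normalized the counts with DESeq2 1.42.0; the library kit was directional and the strand setting of the counting is not given in the sources used here. The deposited values are a signal: each count on a gene was divided by the size factor of its library.

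From these, log2(normalized count + 1) was tested with limma 3.58.1 (R 4.3.3), using a trend and 1 model for the 9 libraries. Adjustment was by Benjamini-Hochberg over the 12100 genes whose mean was 10 or more. Called genes had a fold change over 2 and an adjusted p under 0.05. Fold changes on this scale understate the change of low genes. Whole reads were recovered for 100% of the values (tolerance 0.01) and served for edgeR 4.0.16 (quasi-likelihood) and DESeq2 1.42.0 as alternative tests. Depth was 7426136 to 12183041 reads per library, and the SD between libraries exceeded the counting error for 33, 35 and 34 of the 35 members in controls, Dox and Tc (median ratio 3.97, 11.7 and 6.48). The labels number the samples but do not say that each was a separate mouse. Medians over members are descriptions with no test. Symbols were found for 32158 of 32285 identifiers. Levels per kilobase use the longest principal transcript of the annotation. Coordinates are GRCm38, and promoter sequences are from RefSeq on GRCm38.p6.

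Members given in every library were those called, those whose treated libraries did not overlap the controls with a log2 fold change over 0.58 in size, and those with the largest change with Dox or Tc in each route; Haao, Kynu, Gldc, Cdo1 and Csad were added after their values were seen. Some called genes of the other lists and some sequences are not reported here. Foxa2 and Creb3l3 were added after their values were seen. Of the further enzymes 1 of 49 was not analysed here. Deviations from the group mean correlated between Dox and Tc libraries of the same number (r = 0.287, 0.321 and 0.182), while those of the controls correlated with neither (r from -0.0807 to 0.055). The numbers come from the sample titles. Alternatives covered the pseudocount (0.1 and 8), the filter (none, and 50), the test, the scaling, which groups entered the fit, a replicate block, the fold limit, libraries 3 left out and each library left out.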

Additional observations from a re-analysis of the deposited data

Results flagged for a closer look

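Gldc, the P protein of the glycine cleavage complex, was the member whose drug groups lay on opposite sides of the controls. Every Dox library was above every control, with a log2 fold change of 0.55, and every Tc library was below every control, with a log2 fold change of -0.32. The normalized counts were 1409, 1429.7 and 1425 in controls, 1698, 2672 and 1979 with Dox, and 1298, 1064 and 1069.6 with Tc. Neither change passed the limma threshold (adjusted p = 0.0859 and 0.538). The log2 difference of Dox against Tc was 0.87, with an adjusted p of 0.0857 from limma over all genes and 8.21e-04 from DESeq2. Without libraries 3 these were 0.755 and 0.653.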

How the results depend on the processing

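Over 22 log2 fold changes of named members and 462 values from alternatives, 442 kept their direction and their side of the call (fold change over 2 and adjusted p under 0.05), 10 were no longer called, 8 were newly called and 2 changed sign. By adjusted p alone, 6 of the 22 passed, and 47 of their 126 values from alternatives did not (15 of Shmt1, 12 of Prodh2, 10 of Cbs, 4 each of Acmsd and Uroc1, and 2 of Tdo2). Of the 336 values of the other 16, 19 newly passed. Both sign changes were of Aass with Tc, from -0.05 to 0.02 without libraries 3 and to 0.13 without Control library 1 (from -0.28 to 0.13 with 1 library left out in turn). The 3 members called with Dox became 0 with limma without libraries 3, 6 with no fold limit, and 0 to 8 with 1 library left out in turn. The 0 members called with Tc became 1 (Acmsd) with only the Control and Tc libraries in the fit, and 0 to 1 with 1 library left out. The 0 called between Dox and Tc became 2 with DESeq2, and 0 to 7 with 1 library left out. The cause of these shifts was not tested, except that a fit without libraries 3 has fewer libraries. The pooled SD of the library medians of the members was 0.183. Scaling all libraries to the same total moved the Dox median of all genes from 0.00 to 0.17 and of the members from 0.05 to 0.23. It moved the member median of Dox against Tc from -0.05 to 0.13. These moves of the member medians were about as large as that SD.

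With the replicate number as a block, 3 members were called with Dox (Tdo2, Acmsd and Uroc1), 0 with Tc and 0 between Dox and Tc. With only Dox and Tc in the blocked fit, a choice made after the pairing was checked, 0 were called. The share of all genes called in these blocked fits was not counted. Same-numbered Dox and Tc libraries correlated in their deviations from the group mean, and those of the controls correlated with neither. This cannot establish that the numbers pair samples, since the 3 deviations of a group are tied together by its mean. With the block Shmt1 and Prodh2 had limma adjusted p of 0.0716 and 0.0633 with Dox. No other call of the members changed under the block.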

Other observations

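Tat and Got1, transaminases outside the member list, also differed between the first and the second Dox library. Tat, which opens tyrosine breakdown, had 13817, 159364 and 63627 normalized counts with Dox against 21169, 11817 and 16131 in controls and 15568, 28148 and 21795 with Tc. Its log2 fold change with Dox was 1.71 in limma (adjusted p = 0.178) and 2.27 in DESeq2 (adjusted p = 0.00655, and 0.289 without libraries 3). Got1, the cytosolic aspartate transaminase, had 1739.5, 39349.5 and 14499.7 with Dox against 4255, 1415 and 2827.5 in controls and 2863, 1879 and 2410.4 with Tc. Its log2 fold change with Dox was 1.95 in limma (adjusted p = 0.217) and 2.71 in DESeq2 (adjusted p = 0.00637, and 0.267 without libraries 3). In both genes the first Dox library lay within the range of the controls. Bcat2, the mitochondrial branched-chain transaminase, was close in all Dox libraries and had 206, 214 and 208 normalized counts in controls, 126, 117 and 113 with Dox and 134, 134 and 152 with Tc. It was lowered by 0.82 on the log2 scale with Dox (limma adjusted p = 0.0105, and 0.0669 at most with 1 library left out), below the fold limit, and its adjusted p without libraries 3 was 0.558 from limma and 0.415 from DESeq2. These 3 genes were chosen after their values were seen.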
